A study of Rattus norvegicus with 2 samples.

Results

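EphB receptors and B ephrins are the genes Ephb1, Ephb2, Ephb3, Ephb4, Ephb6, Efnb1, Efnb2 and Efnb3, taken by name from the deposited count table, and all 8 were found among its 25628 genes. They were selected on the ratio between the pull-downs described below, that is, with the values of this comparison known. They were followed in a RIP-seq experiment that asked which mRNAs interact with P180 (gene Rrbp1), an integral ER membrane protein that binds ribosomes, in rat primary cortical neurons. Neurons carried P180-GFPbio, which is P180 fused to a GFP tag that can be biotinylated, or GFPbio, the tag alone, as the control condition. Streptavidin beads collected the tagged protein and the RNA bound to it was sequenced. For each condition 1 library was used here, named the P180 RIP and the GFP RIP (RIP for RNA immunoprecipitation), so no difference below has a replicate check, and each one compares these libraries rather than the conditions. Both groups depend on an introduced construct, the P180 group on P180 in addition to the endogenous protein. The age of the cortical cultures, how the constructs were delivered and the number of animals are not stated in the labels or the methods used here. No input RNA was analysed, so a level below is a level in a pull-down and not in the neuron.

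Eph receptors form the largest family of receptor tyrosine kinases, and their ligands, the ephrins, are held on the surface of the neighbouring cell. Ligand binding signals into the receptor cell, and B ephrins, which span the membrane, also signal backwards into their own cell, whereas A ephrins are held by a lipid anchor. In the nervous system EphB receptors and B ephrins steer growing axons, mostly by repulsion, and act in the formation of excitatory synapses. All of these proteins enter the ER while they are made.

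The P180 RIP held 6298343 counts over 13407 genes and the GFP RIP 8428358 counts over 9345 genes. A count stands for sequence read at the 3′ end of an mRNA, and whether reads of the same molecule were merged is not stated. Counts were divided by a size factor for each library (0.846 and 1.18) to give scaled counts, and the ratio is the scaled count in the P180 RIP over that in the GFP RIP. A gene was called when this ratio passed 2-fold, among the 11468 genes whose counts summed to 10 or more. A library without a count was set to a floor of 3 counts, which is 0.476 CPM (counts scaled to the library total) in the P180 RIP and 0.356 in the GFP RIP. Intervals are exact 95% counting intervals and leave out all but counting error. They take each read as a separate molecule, so amplified copies left unmerged would make them too narrow even for counting error. Rrbp1 itself had 2541 and 1334 counts, a ratio of 2.66 (2.49 to 2.85), and the row of the tag, EGFP_avitag, took 1.02% and 2.25% of all counts. Genes of the mitochondrial genome made up 7.31% of the P180 RIP and 16.6% of the GFP RIP. Scaling to totals without these genes and the tag row lowered every log2 ratio by 0.24 and changed no call of an EphB receptor or B ephrin.

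Of the 8 genes, 7 had enough counts to be examined. Ephb3, Ephb4, Ephb6 and Efnb2 were higher in the P180 RIP by 2-fold or more, Efnb1 was at least 2-fold lower, and Ephb1 and Efnb3 stayed within 2-fold. Of all 11468 genes, 40.6% passed 2-fold upwards and 19.9% downwards. Ephb4 and Efnb2 had no count in the GFP RIP, where a gene with 10 or more counts is called higher by construction. Of the 5 genes with reads on both sides, 2 were higher and 1 was lower, against 25.6% and 24.0% of 9005 such genes. These 5 also had a mean scaled count of 100 or more, where 22.8% of all genes were higher and 22.6% lower. The genes were picked with this comparison in view, so these counts describe them and are not evidence of a direction for the family.

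Ephb3 encodes a receptor with an active kinase domain that acts in axon guidance, in mouse among others in the crossing of forebrain commissures. It had 668 counts in the P180 RIP and 1 count in the GFP RIP. These are 106.1 CPM (95% exact Poisson interval 98.2 to 114) against 0.119 (0.00300 to 0.661). The log2 ratio was 9.87 with an interval of 7.38 to 15.17, wide because it rests on a single count in the GFP RIP. No other gene of the 11468 had a higher ratio, but 2343 of them had no count in the GFP RIP. These enter as ratios to the floor of 3 counts, whereas Ephb3 was divided by its 1 count. The top rank therefore depends on the floor, as 1 gene at 1000 to 1999 counts in the P180 RIP had none in the GFP RIP. The 1079 genes at 500 to 999 counts in the P180 RIP form a class set after the value of Ephb3 was seen. Of these, 4 had at most 1 count in the GFP RIP, namely Ephb3 itself and 3 genes at 0. The median of the class in the GFP RIP was 805 counts. Near absence from the GFP RIP was therefore seen in few other genes of this class.

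Ephb6 encodes a receptor whose kinase domain lacks activity and which signals through other Eph receptors. It had 1467 counts in the P180 RIP and 199 in the GFP RIP, or 1734 against 168 scaled counts. The log2 ratio was 3.36 (3.15 to 3.59), a 10.3-fold difference. A higher ratio was found for 17.0% of all genes examined, and for 5.62% of the 9005 with reads on both sides. Ephb6 thus gives the largest ratio of the family that rests on many counts in both libraries.

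Ephb1, a kinase-active receptor that in mouse directs retinal axons to the same side of the brain, had 1129 counts in the P180 RIP and 864 in the GFP RIP. Its log2 ratio was 0.87 (0.74 to 1.00), under 2-fold. Of genes examined 42.5% had a higher ratio, and of those with reads on both sides 28.1%. The upper limit of the interval lay just inside 2-fold.

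The other receptors were near the limit of detection. Ephb4, the receptor best known from veins, had 14 counts in the P180 RIP and 0 in the GFP RIP. Against the floor it was at least 6.52-fold higher, with a lower counting limit of 4.63. The ratio of 6.52 depends on the floor, and with a floor of 1 count it was 4.29 on the log2 scale, for Efnb2 as well. Ephb2, a receptor of excitatory synapses that clusters NMDA receptors, had 7 counts in the P180 RIP and 0 in the GFP RIP, which is below the minimum of 10 counts, so no call was made. Absence from the GFP RIP was common at this level, as 746 of the 1103 genes at 10 to 19 counts in the P180 RIP (67.6%) had none there. In the reverse direction, 20 of the 298 genes at 10 to 19 counts in the GFP RIP (6.71%) had none in the P180 RIP.

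**Figure D1:**
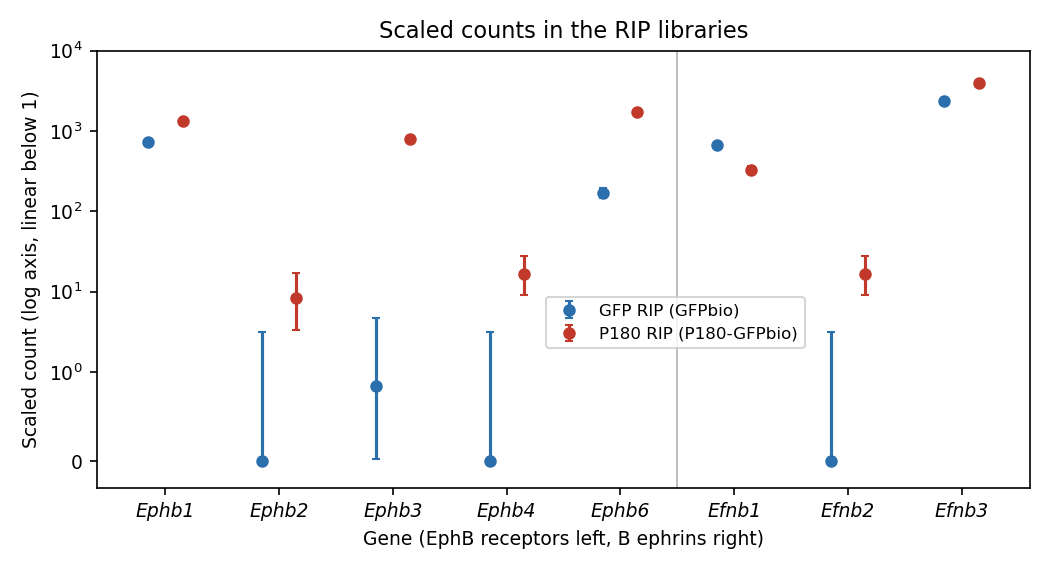
Scaled counts (log axis, linear below 1) of the 8 genes in the GFP RIP (blue) and the P180 RIP (red), 1 library each, with 95% exact Poisson intervals as bars. Ephb3 stands at 789.6 in the P180 RIP and 0.846 in the GFP RIP, whereas Efnb1 is the gene with the higher value in the GFP RIP (667.5 against 325).

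The ligands differed from each other. Efnb3, which in mouse marks the spinal midline and keeps corticospinal axons from recrossing, had 3379 counts in the P180 RIP and 2770 in the GFP RIP. Its log2 ratio was 0.77 (0.70 to 0.84), below 2-fold, and its interval did not reach 1.00. Efnb1, a B ephrin whose human gene is mutated in craniofrontonasal syndrome, had 275 counts in the P180 RIP and 789 in the GFP RIP. Its log2 ratio was -1.04 (-1.24 to -0.84), so it was 2.05-fold higher in the GFP RIP. Of genes examined 80.7% had a higher ratio, and of those with reads on both sides 76.7%. In a single random draw that thinned the GFP RIP to the depth of the other, its log2 ratio was -0.9996, just short of 2-fold, and was not called. That value lay inside the counting interval, so the call rests on counting error at the threshold. Efnb2, the ephrin of arteries, had 14 counts in the P180 RIP and none in the GFP RIP, the same counts as Ephb4. Its ratio to the floor was 6.52 (lower counting limit 4.63).

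Ratios of genes within the family can be set against each other without any scaling factor, because the factor cancels. The ratio of Ephb6 was 5.64 times that of Ephb1 (4.73 to 6.74) and 6.04 times that of Efnb3 (5.16 to 7.10). The ratio of Ephb3 was 511 times that of Ephb1, with a lower limit of 90.9, and 90.6 times that of Ephb6, with a lower limit of 16.0. Among the ligands, the ratio of Efnb3 was 3.50 times that of Efnb1 (3.02 to 4.07). Ephb1 and Efnb3 were not told apart, at 1.07 (0.966 to 1.19). For genes with reads on both sides the order from high to low was therefore Ephb3, Ephb6, then Ephb1 with Efnb3, then Efnb1, with neighbours separated beyond counting error except for Ephb1 and Efnb3. The spread between replicates was not analysed here.

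The makeup of the receptor counts differed as a result. Ephb1 took 81.2% of the 1064 EphB receptor counts in the GFP RIP (95% exact binomial interval 78.7 to 83.5) and 34.4% of the 3285 in the P180 RIP (32.7 to 36.0). Ephb6 took 18.7% (16.4 to 21.2) in the GFP RIP and 44.7% (42.9 to 46.4) in the P180 RIP. For Ephb3 the shares were 0.0940% (0.00238 to 0.523) and 20.3% (18.97 to 21.8). Ephb2 and Ephb4 held under 1% in each library, and for a count of 0 in the GFP RIP the upper limit of the exact interval was 0.346% (0.282% if 3 counts are taken as the limit). Of the B ephrin counts, Efnb3 took 77.8% (76.4 to 79.2) of 3559 in the GFP RIP and 92.1% (91.2 to 93.0) of 3668 in the P180 RIP. A share depends on the other genes of the family: that of Ephb1 was lower in the P180 RIP although its scaled count was higher there (1334 against 731), because the counts of Ephb3 and Ephb6 differed more. Shares of counts do not give the amounts of different mRNAs.

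**Figure D2:**
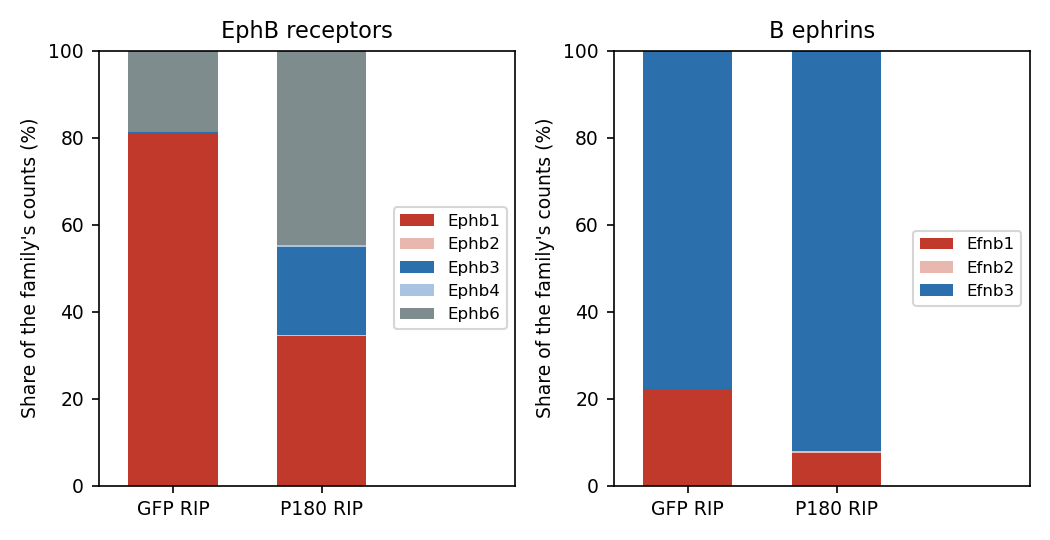
Share of the EphB receptor counts (left) and of the B ephrin counts (right) held by each gene, in percent, in the GFP RIP and the P180 RIP (1 library each). Ephb1 goes from 81.2% to 34.4% of the receptor counts, although its scaled count is higher in the P180 RIP, since Ephb3 and Ephb6 take 20.3% and 44.7% there, and Efnb1 goes from 22.2% to 7.5% of the ligand counts.

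The EphA receptors and A ephrins, the most similar gene families, had 8 of 14 genes with enough counts. Of these, 4 passed 2-fold upwards and 1 downwards, against 40.6% and 19.9% of all genes. Epha3 (36 counts) and Efna5 (25 counts) passed without a count in the GFP RIP, which is by construction, and with reads on both sides 2 of 6 passed upwards, against 25.6% of all such genes. Epha4, a receptor that also binds B ephrins, had 4928 and 3299 counts, a log2 ratio of 1.06 (1.00 to 1.13) whose lower limit lay just inside 2-fold, and Epha5, a receptor of topographic axon maps, had 1386 and 1389 counts (0.48, 0.37 to 0.59). Efna4, an A ephrin, was the mirror image of Ephb3, with 2 counts in the P180 RIP and 193 in the GFP RIP and a log2 ratio of -6.11 (-9.17 to -4.24). Summed over all genes of a family, EphB receptors had 3285 counts in the P180 RIP and 1064 in the GFP RIP, a scaled ratio of 4.31 (4.02 to 4.63). The sum stood at 3.44 (3.20 to 3.70) without Ephb3 and at 2.94 (2.71 to 3.19) without Ephb6. The same ratio was 1.44 (1.37 to 1.51) for B ephrins, 1.81 (1.75 to 1.88) for EphA receptors and 0.821 (0.759 to 0.888) for A ephrins. Over all genes examined it was 1.04. The intervals of the 4 families did not overlap, but they hold counting error alone, and each sum is carried by 1 to 3 genes. The EphB receptors and B ephrins were picked with these ratios known, so the sums only describe them. No test of a difference between families was possible with 1 library of each condition.

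**Figure D3:**
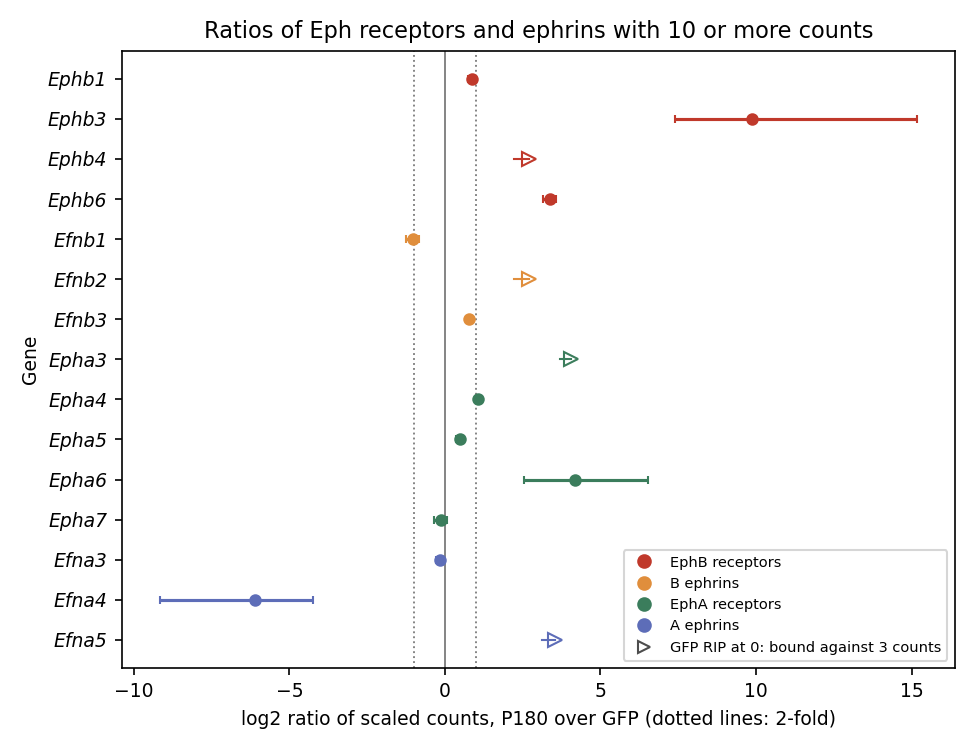
Log2 ratio of scaled counts, P180 over GFP, for the 15 Eph receptors and ephrins with 10 or more counts, 1 library per condition. Bars are 95% exact counting intervals, open triangles are bounds for genes without a count in the GFP RIP (their line starts at the lower counting limit), and dotted lines mark 2-fold. Ephb3 (9.87) and Efna4 (-6.11) lie at the ends, each with few counts in 1 library.

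Partners of EphB signalling were followed in lists by where the protein is made. Of 22 membrane or secreted partners 19 had enough counts, 8 of which passed 2-fold upwards and 2 downwards, with a median log2 ratio of 0.82 against 0.45 over all genes examined. The most abundant were L1cam, an adhesion molecule phosphorylated by EphB2 (0.95, 0.91 to 0.99), Grin1, the common NMDA receptor subunit (0.77, 0.73 to 0.82), Ptpro, a phosphatase that acts on Eph receptors (1.06, 0.98 to 1.13), and the semaphorin receptor Nrp1 (0.50, 0.39 to 0.62). Ptpro was the single gene of these that passed 2-fold, and the lower limit of its interval lay below 2-fold. The sheddase Adam10, named after its value was seen, had a log2 ratio of -0.29 (-0.62 to 0.03), with 0 inside its interval.

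Of 32 cytosolic signalling partners 29 had enough counts, and 8 were higher and 8 lower, with a median of 0.17, a sign that turned under 2 other settings (-0.07 with totals that leave out the tag row and the mitochondrial genome, -0.32 with a mean scaled count of 100 or more). The most abundant were the kinase Src (-1.23, -1.33 to -1.12), the synaptic phosphatase Synj1 (-1.33, -1.44 to -1.23), the kinase Fyn (0.18, 0.08 to 0.28) and the adaptor Git1 (0.49, 0.37 to 0.61). Src and Synj1 were lower in the P180 RIP by more than 2-fold and the other two were not. The 5 PDZ scaffolds, which bind the tails of EphB receptors and B ephrins, all stayed within 2-fold, from Sdcbp at -0.75 (-0.97 to -0.53) to Afdn at 0.68 (0.51 to 0.85). The higher shares of 8 in 19, 8 in 29 and 0 in 5 stand beside 40.6% of all genes, and the 8 in 29 that were lower beside 19.9%. With reads on both sides, 7 of 18 membrane or secreted partners and 4 of 25 cytosolic partners were higher, against 25.6% of all such genes.

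**Figure D4:**
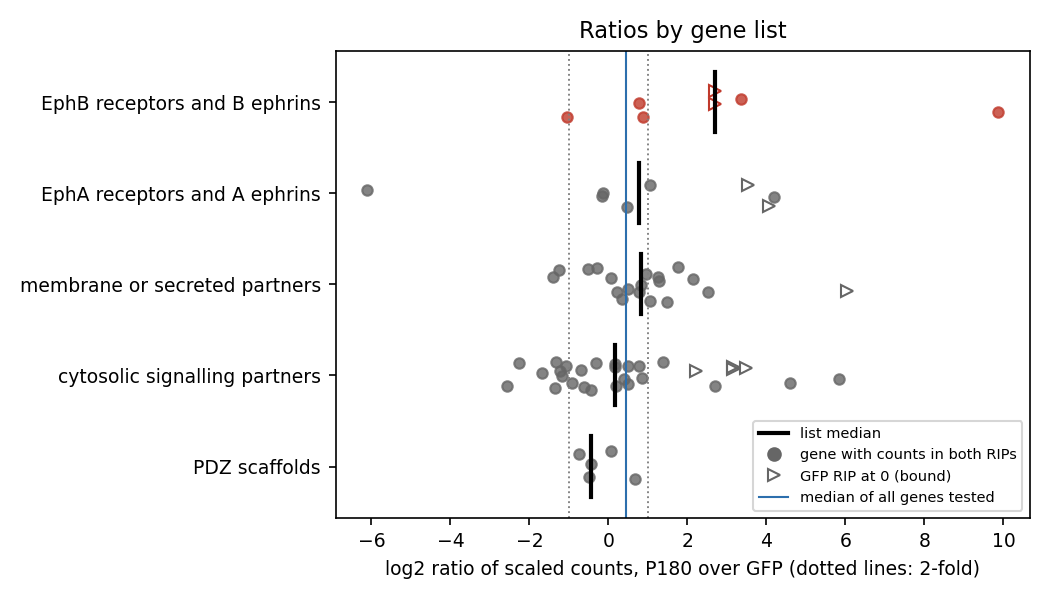
Log2 ratio of scaled counts, P180 over GFP, for each gene with 10 or more counts in 5 lists (EphB receptors and B ephrins in red). Filled points have counts in both libraries, and open triangles, marked as bounds, are ratios to the floor. Black bars are list medians with these ratios included, the blue line is the median of all 11468 genes and dotted lines mark 2-fold. The median of the membrane or secreted partners is 0.83 and that of the PDZ scaffolds -0.45.

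Most astrocyte markers were higher in the P180 RIP. For the other non-neuronal cell types, part or all of the higher calls were genes without a count in the GFP RIP, called by construction. For comparison, 40.6% of all genes passed 2-fold upwards, and 25.6% of those with reads on both sides. Of 10 astrocyte markers 8 passed 2-fold upwards (6 of 8 with reads on both sides), with 4679 CPM summed in the P180 RIP and 1263 in the GFP RIP. Of 8 markers of dividing cells 6 were higher (2 of 4 with reads on both sides, 191 against 94.7 CPM). Ccna2 (1.02-fold) and Pcna (1.12-fold) stayed within 2-fold. Of 8 of the oligodendrocyte lineage 4 were higher and 1, Cspg4, lower (2 of 5 higher with reads on both sides, 619 against 295 CPM), with Mog at 0 in both. The 10 neuronal markers were all detected in both libraries, with 1 higher and 1 lower (7327 against 7888). In RNA pulled down from a whole culture, more cells of a type, more RNA per cell and more RNA collected with the tagged protein cannot be told apart. Of the endothelial markers, Pecam1 had 50 counts in the P180 RIP and none in the GFP RIP, and Cdh5, Kdr, Tek, Flt1, Tie1 and Vwf were at 0 in both. Of 8 microglial markers 3 had enough counts, all without a count in the GFP RIP, and P2ry12, Tmem119 and Itgam were at 0 in both. The part of these cell types in the values of the EphB receptors and B ephrins was not tested.

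The genes with counts most like those of Efnb3 and Ephb6, the members with the most counts in the P180 RIP, were found by distance over log2(scaled count + 1) in the 2 libraries. For Efnb3 they were Prkacb, a catalytic subunit of protein kinase A (distance 0.0548), Fam171b (0.0694) and Scg3, a secretory granule protein (0.0769). For Ephb6 they were an unnamed gene (0.199), Esyt2, a tether between the ER and the plasma membrane (0.272), and Ephx1, an epoxide hydrolase of the ER (0.318). With 2 libraries this likeness says only that the counts are close.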

How the data were processed

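The authors deposited raw counts per gene. Adapted CEL-Seq2 libraries were demultiplexed with je-suite-2.0, aligned to mRatBN7 and counted with STARsolo 2.7.10a (also in the submitters' processing notes), without reads that had several equally good positions. The annotation release, the strand setting and any use of molecular identifiers are not stated there, so amplified copies may count as separate reads. The table's 2 other columns of counts, named as a second replicate of each condition, match no sample as given here and were not used, so the spread between replicates was not analysed, and 92 ERCC rows were left out. The authors' DESeq2 test needs replicates and was not repeated.

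Size factors are medians of ratios. Medians of lists use log2 with 1 scaled count added. Intervals of ratios are Clopper-Pearson, from the part of a gene's reads that fell in the P180 RIP, and those of ratios between genes are conditional exact intervals. Members and lists were chosen with earlier results of these data known. Named were all members, other Eph and ephrin genes, the 4 most abundant genes of each partner list, markers, and the 3 nearest genes of 2 members. Genes were named by the table's symbols. All 8 matched a symbol of the RefSeq gene table (GRCr8), which lists Ephb2 also as a synonym of Ephb1 and places Zan across Ephb4 and a long non-coding RNA across Ephb2. No coordinates were used, since the builds differ. Python 3.11.15, numpy 2.4.6, pandas 2.3.3, scipy 1.17.1, R 4.3.3 and edgeR 4.0.16 (TMM factors) were used. The steps were run on counts simulated with counting error alone. Such counts hold neither replicate spread nor amplified copies, so the run checks the code and not the intervals for these data. Alternatives were other scalings, count filters, thinning, a lower floor (1 count) and a larger added value (5 scaled counts). The result of 1 partner gene is not reported here.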

Additional observations from a re-analysis of the deposited data

How the results depend on the processing

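No paired analysis was possible because each condition has 1 library here. Leaving out a replicate was not possible for the same reason. Scaling to totals that leave out the tag row and the mitochondrial genome lowered every log2 ratio by 0.24, that of the median gene included, and turned the median of the cytosolic partners to -0.0702, and no scaling changed the direction or the call of a member. Thinning the GFP RIP, in a single random draw, left 0 of 7 members at least 2-fold lower, as Efnb1 stood just inside the threshold. Without a filter on counts, Ephb2 was also called, at 3.26-fold against the floor under the main scaling. With the mean scaled count held at 100 or more, 2 of 5 members were higher, with a median log2 ratio of 0.87 in place of 3.36, since the genes without a count in the GFP RIP drop out. Under the same filter the EphA receptors and A ephrins had 1 of 4 genes higher and 0 lower, with a median of 0.17, 2 of 19 cytosolic partners were higher (median -0.32), and of 6693 genes 1523 were higher and 1513 lower (median -0.0306). With a floor of 1 count, the log2 ratios of Ephb4 and Efnb2 to the floor rose to 4.29. With 5 scaled counts added the median of the members was 2.11. Of the other values recomputed for counts and medians of lists, 137 moved by less than 1.5 times. Among these, scaling to total counts left 7 of 19 membrane or secreted partners higher, in place of 8. The same scaling left 3 of 8 EphA receptors and A ephrins higher, in place of 4. Low counts limit Ephb2, Ephb4 and Efnb2, which had none in the GFP RIP, and the single count there limits Ephb3. The GFP RIP held more counts in total (8428358 against 6298343) but over fewer genes (9345 against 13407).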
